A study of Mus musculus with 23 samples.

Results

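A set of 40 genes that mark macrophages was followed through bulk RNA-seq libraries of primary mouse embryonic fibroblasts (MEFs). The members were taken by name from a list of macrophage-restricted genes, and each of the 40 matched 1 of the 55487 gene rows of the count table. The cells were grown from mid-gestation FVB/NJ embryos, as primary cultures. They carried the unmodified glucocorticoid receptor (GRwt/wt), a threonine for alanine change in its DNA-binding domain (GRD/D), an alanine for isoleucine change in the domain that binds ligand (GRL/L), or these mutations combined (GRD+L/D+L). Treatment was vehicle or dexamethasone (Dex), a synthetic glucocorticoid, at 10 nM for 5 h. Each of the 8 combinations had 3 libraries, apart from GRD/D vehicle with 2, which makes 23. All mutations were present in every cell of the embryo, so that any macrophage in a culture carried the genotype of the fibroblasts around it.

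Tissue macrophages arise in the embryo from blood-forming progenitors and settle in nearly every organ, where they engulf dying cells and debris. Their identity rests on the transcription factor PU.1 (gene Spi1) and on signalling through the CSF1 receptor (Csf1r), whose ligand CSF1 is made by fibroblasts. A MEF culture is made from minced embryo, which may carry macrophages along. Counts from bulk RNA do not separate cells, so fewer macrophages and less RNA per macrophage cannot be told apart, and no share of cells is given. The level of the set is instead given as the sum over the 40 genes of CPM, a count divided by the library size in megacounts, with library sizes scaled by TMM factors, which ranged from 0.946 to 1.07.

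PU.1 and its relatives bind sequences around the letters GAGGAA. RefSeq promoter windows of 300 bases on GRCm38.p6, from 250 bases before to 50 after a gene start, were held for 30 of the 40 genes, in 35 windows. Of these windows, 22 (62.9%) contained GAGGAA on either strand, against 28.3% of the 32851 windows of all genes. The longer form GAGGAAGT was in 5 of the 35 (14.3%) and in 3.2% of all. A match of letters is a description and not a binding site. The 5 windows with the longer form are shown 5′ to 3′ on the strand of the gene, because they hold that form and because their genes behaved unlike each other below, C1qc among the steadiest members of the set and Mmp12 among the most variable. Capitals mark GAGGAAGT or its reverse complement ACTTCCTC.
Ctss (chr3:95526536-95526835, plus strand): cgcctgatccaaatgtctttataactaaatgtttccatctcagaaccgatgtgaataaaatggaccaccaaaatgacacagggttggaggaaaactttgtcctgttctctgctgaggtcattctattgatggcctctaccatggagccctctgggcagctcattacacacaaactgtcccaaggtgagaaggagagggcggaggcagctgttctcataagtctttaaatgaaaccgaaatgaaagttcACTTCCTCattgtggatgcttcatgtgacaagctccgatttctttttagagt
C1qc (chr4:136892865-136893164, minus strand): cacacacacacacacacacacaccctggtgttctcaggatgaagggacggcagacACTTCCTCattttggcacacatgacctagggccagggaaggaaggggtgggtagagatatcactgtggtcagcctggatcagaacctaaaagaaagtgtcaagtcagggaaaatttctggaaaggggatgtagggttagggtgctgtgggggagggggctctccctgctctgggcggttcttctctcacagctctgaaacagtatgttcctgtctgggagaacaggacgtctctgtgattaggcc
Cd53 (chr3:106790100-106790399, minus strand): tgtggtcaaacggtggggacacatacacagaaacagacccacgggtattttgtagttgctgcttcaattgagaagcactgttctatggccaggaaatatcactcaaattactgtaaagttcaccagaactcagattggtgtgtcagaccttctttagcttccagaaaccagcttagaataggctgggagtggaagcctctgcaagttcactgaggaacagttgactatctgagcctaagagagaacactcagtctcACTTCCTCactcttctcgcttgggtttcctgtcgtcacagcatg
Pld4 (chr12:112760405-112760704, plus strand): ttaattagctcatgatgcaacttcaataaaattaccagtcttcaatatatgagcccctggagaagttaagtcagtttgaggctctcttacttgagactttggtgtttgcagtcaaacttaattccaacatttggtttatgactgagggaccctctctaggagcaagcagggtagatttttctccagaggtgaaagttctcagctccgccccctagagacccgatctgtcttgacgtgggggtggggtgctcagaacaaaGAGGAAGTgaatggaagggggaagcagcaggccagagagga
Mmp12 (chr9:7344147-7344446, plus strand): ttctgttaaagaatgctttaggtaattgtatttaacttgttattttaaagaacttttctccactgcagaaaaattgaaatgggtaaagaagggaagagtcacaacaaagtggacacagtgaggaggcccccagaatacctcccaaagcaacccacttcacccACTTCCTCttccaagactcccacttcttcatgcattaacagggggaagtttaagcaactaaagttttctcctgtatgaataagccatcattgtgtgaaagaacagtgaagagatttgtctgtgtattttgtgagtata
Ctss encodes the lysosomal protease cathepsin S, C1qc a chain of complement C1q, Cd53 a leukocyte tetraspanin, Pld4 an endolysosomal nuclease and Mmp12 a secreted elastase.

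Library totals lay between 16452539 and 23117080 counts, so that 3 counts, taken as the floor of detection, were worth 0.136 to 0.187 CPM. Markers of fibroblasts were high throughout, with 10 genes such as Dcn and Fn1 summing to 40526 to 65594 CPM. Markers of other blood lineages were close to absent. A list of 8 erythroid genes summed to at most 0.698 CPM, 8 granulocyte and monocyte genes to at most 0.412 CPM, 5 mast cell genes to at most 1.62 CPM and 6 lymphocyte genes to at most 0.229 CPM. Endothelial genes (7 genes) reached 20.9 CPM. GRwt/wt vehicle replicate 1 stood apart from all other libraries over all genes, with a highest Spearman correlation of 0.916 against at least 0.973 elsewhere, and held the highest sum of 4 skeletal muscle genes (267 CPM, median over libraries 24.7 CPM). Fkbp5, a direct target of the receptor used as a check of the treatment, had an LFC (log2 fold change) of 3.49 with Dex in GRwt/wt (edgeR adjusted p = 2.67e-06). Its LFC was 1.68 with an SE of 0.288 in GRD/D (edgeR adjusted p = 0.137). The values were 0.07 for GRD+L/D+L cells and 0.12 for GRL/L cells (edgeR adjusted p = 1.0 in both), and Fkbp5 was called in GRwt/wt alone among the 4 Dex comparisons.

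The sum of the macrophage genes differed widely between libraries. It ranged from 62.0 CPM in GRD+L/D+L vehicle replicate 2 to 9999 CPM in GRwt/wt vehicle replicate 3, a 161-fold range. In GRwt/wt, the vehicle libraries held 110, 127 and 9999 CPM and the Dex libraries 107, 366 and 119 CPM. Replicate 3 of the vehicle group thus stood 84.1-fold above the equally numbered Dex library, which is not stated to be of the same culture. All 40 genes had their highest value of the 23 libraries there, and the set took 1.00% of its counts (exact 95% interval 0.996 to 1.00%, which covers counting error only). In GRD/D the sums were 2026 and 668 CPM in vehicle and 1890, 3551 and 630 CPM with Dex. In GRL/L they were 1564, 1606 and 705 CPM in vehicle and 1640, 1672 and 667 CPM with Dex. In GRD+L/D+L they were 206, 62.0 and 213 CPM in vehicle and 191, 62.2 and 208 CPM with Dex. All GRD/D and GRL/L libraries therefore lay above every GRD+L/D+L library and above every GRwt/wt library but one. The order of the 3 numbered libraries was the same in both treatments within GRL/L and within GRD+L/D+L.

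**Figure D1:**
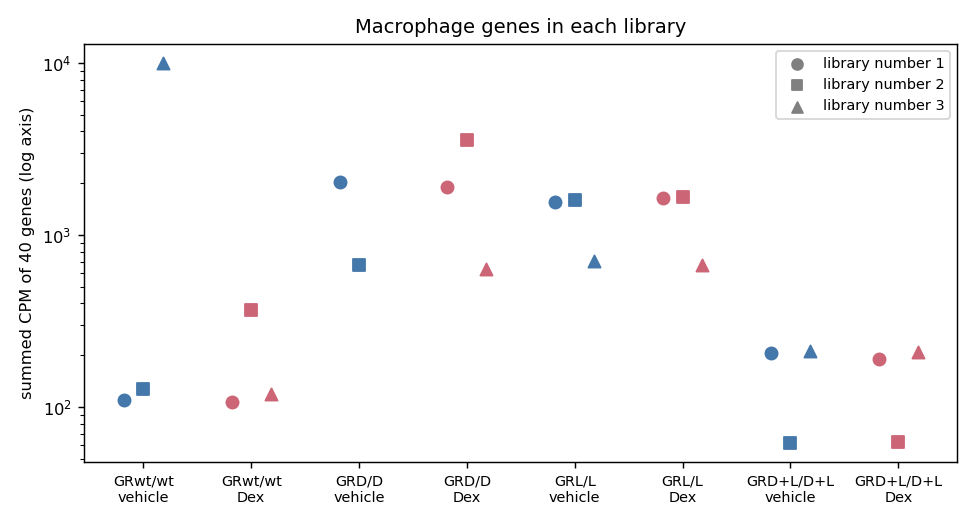
Summed CPM of the 40 macrophage genes (log axis) in each of the 23 libraries, by genotype and treatment, with blue for vehicle, red for Dex and the marker shape for the library number. GRwt/wt vehicle replicate 3 lies at 9999 CPM, and equally numbered vehicle and Dex libraries of GRL/L and of GRD+L/D+L lie at like heights.

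Lyz2, which encodes lysozyme, was the most abundant member per kilobase in GRwt/wt vehicle replicate 3. It reached 24.1, 7.62 and 3379 CPM in GRwt/wt vehicle against 20.7, 63.6 and 6.68 CPM with Dex. In GRD/D it reached 754 and 196 CPM in vehicle and 666, 1149 and 195 CPM with Dex. In GRL/L it reached 496, 509 and 218 CPM in vehicle and 523, 542 and 205 CPM with Dex, and in GRD+L/D+L 56.3, 4.62 and 40.7 CPM against 52.5, 3.85 and 39.2 CPM. The ranges of vehicle and Dex libraries overlapped in every genotype. Per kilobase of exon in GRwt/wt vehicle replicate 3, Lyz2 was followed by Cd68 (310 CPM per kb against 2568), the lysosomal glycoprotein macrosialin, by Ctss (300 CPM per kb) and by C1qa (270 CPM per kb). The lowest levels per kilobase were those of Ly86 (1.13), an accessory protein of the Toll-like receptor RP105, and of the beta-glucan receptor Clec7a (1.36).

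The transcription factor gene Spi1 (chromosome 2, 91082390 to 91115756, plus strand, GRCm38) was likewise highest in GRwt/wt vehicle replicate 3. Its CPM were 0.276, 0.107 and 33.5 in GRwt/wt vehicle, 0.354, 0.703 and 0.0624 in GRwt/wt Dex, 4.24 and 1.35 in GRD/D vehicle, and 4.23, 8.91 and 2.06 in GRD/D Dex. They were 5.11, 4.84 and 2.59 in GRL/L vehicle, 4.45, 4.81 and 1.97 in GRL/L Dex, 0.570, 0.0457 and 0.0589 in GRD+L/D+L vehicle and 0.218, 0 and 0.229 in GRD+L/D+L Dex. Every GRD/D and GRL/L library lay above every GRD+L/D+L library. Other members of the transcription and signalling group were the adaptor Blnk, the protein kinase C substrate Plek, the small GTPase Rac2, the actin regulator Coro1a, the lysosomal membrane protein Laptm5 and the calcium-binding Aif1. Per kilobase, Plek had the highest level of these in GRwt/wt vehicle replicate 3 (73.8 CPM per kb) and Aif1 the lowest (3.05 CPM per kb).

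Among the receptors, Csf1r and Adgre1, which encodes the F4/80 antigen, were highest in the same library. Csf1r, whose exons overlap those of Hmgxb3 on the opposite strand, reached 1.93, 2.42 and 130 CPM in GRwt/wt vehicle, 1.21, 2.76 and 1.81 CPM with Dex, and 14.9 and 8.28 CPM in GRD/D vehicle against 13.8, 42.4 and 6.03 CPM with Dex. It reached 20.5, 16.5 and 9.72 CPM in GRL/L vehicle, 18.9, 17.7 and 9.04 CPM in GRL/L Dex, 3.11, 0.366 and 1.06 CPM in GRD+L/D+L vehicle and 2.34, 0.575 and 1.26 CPM in GRD+L/D+L Dex. Only GRwt/wt vehicle replicate 3 and GRD/D Dex replicate 2 exceeded 40 CPM. The phosphatase gene Ptprc (CD45), carried by all white blood cells, had no count in 3 libraries. Its CPM were 0, 0.0537 and 41.2 in GRwt/wt vehicle, 0.0505, 0.750 and 0.0624 in GRwt/wt Dex, 8.47 and 3.62 in GRD/D vehicle and 7.78, 14.9 and 2.33 in GRD/D Dex. In GRL/L they were 10.3, 10.5 and 3.46 in vehicle and 10.1, 9.13 and 4.20 with Dex, and in GRD+L/D+L 0.725, 0 and 0.648 in vehicle and 1.20, 0 and 0.745 with Dex. Every GRD/D and GRL/L library again lay above every GRD+L/D+L library. For Adgre1 the CPM were 0.386, 0.161 and 155 in GRwt/wt vehicle, 0.556, 3.23 and 0.499 in GRwt/wt Dex, 21.9 and 6.21 in GRD/D vehicle and 21.2, 45.6 and 7.06 in GRD/D Dex. In GRL/L they were 26.5, 25.6 and 13.3 in vehicle and 26.6, 25.4 and 11.4 with Dex, and in GRD+L/D+L 1.87, 0.137 and 1.35 in vehicle and 1.52, 0.0575 and 0.745 with Dex. The number 2 libraries of GRD+L/D+L were the lowest of their genotype for all 3 genes.

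Tyrobp encodes DAP12, the adaptor that carries the signal of Trem2 and other receptors through its ITAM motif. Its CPM were 1.38, 0.215 and 139 in GRwt/wt vehicle, 0.606, 2.44 and 0.187 in GRwt/wt Dex, 21.5 and 6.98 in GRD/D vehicle and 18.5, 49.1 and 7.38 in GRD/D Dex. In GRL/L they were 18.1, 20.4 and 8.84 in vehicle and 20.6, 20.7 and 9.09 with Dex, and in GRD+L/D+L 1.76, 0.366 and 1.00 in vehicle and 2.28, 0 and 1.15 with Dex. Vehicle and Dex overlapped in each genotype. The Fc receptor genes Fcer1g, Fcgr1, Fcgr2b and Fcgr3 completed this group with Trem2. The 3 genes of complement C1q lie next to each other on chromosome 4. C1qb reached 0.607, 0.107 and 121 CPM in GRwt/wt vehicle, 0.859, 2.58 and 0 CPM with Dex, 20.1 and 8.38 CPM in GRD/D vehicle and 19.2, 61.0 and 8.41 CPM in GRD/D Dex. In GRL/L it reached 26.1, 21.4 and 9.20 CPM in vehicle and 28.6, 23.8 and 11.6 CPM with Dex, and in GRD+L/D+L 2.12, 0.0457 and 1.41 CPM in vehicle and 2.23, 0 and 1.66 CPM with Dex. Both genes had no count in GRD+L/D+L Dex replicate 2, and C1qb had none in GRwt/wt Dex replicate 3 either.

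Genes of uptake and the lysosome held 71.0% of the counts of the set in GRwt/wt vehicle replicate 3, and from 23.7 to 85.7% over all libraries. Cd68 reached 8.72, 5.10 and 390 CPM in GRwt/wt vehicle, 5.16, 15.4 and 5.55 CPM with Dex, 49.9 and 19.5 CPM in GRD/D vehicle and 50.3, 128 and 16.8 CPM in GRD/D Dex. In GRL/L it reached 53.0, 47.4 and 22.3 CPM in vehicle and 53.5, 47.7 and 21.3 CPM with Dex, and in GRD+L/D+L 9.74, 1.28 and 3.30 CPM in vehicle and 9.41, 1.26 and 4.24 CPM with Dex. Mrc1, the mannose receptor CD206, reached 0, 0.430 and 189 CPM in GRwt/wt vehicle, 0.253, 3.00 and 0.437 CPM with Dex, 16.9 and 5.54 CPM in GRD/D vehicle and 19.7, 60.2 and 5.59 CPM in GRD/D Dex. In GRL/L it reached 20.9, 18.8 and 8.89 CPM in vehicle and 20.7, 19.3 and 8.99 CPM with Dex, and in GRD+L/D+L 1.40, 0.0457 and 1.06 CPM in vehicle and 1.69, 0.0575 and 1.43 CPM with Dex. Both genes were lowest within GRD+L/D+L in its number 2 libraries. The chemokine gene Ccl3 was low, at 0.0552, 0 and 21.9 CPM in GRwt/wt vehicle against 0.0505, 0.375 and 0 CPM with Dex. Its values were 1.48 and 0.517 CPM in GRD/D vehicle, 3.43, 7.29 and 0.977 CPM in GRD/D Dex, 0.389, 1.13 and 0.310 CPM in GRL/L vehicle and 1.59, 1.60 and 0.479 CPM in GRL/L Dex. No GRD+L/D+L library exceeded 0.259 CPM of Ccl3.

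**Figure D2:**
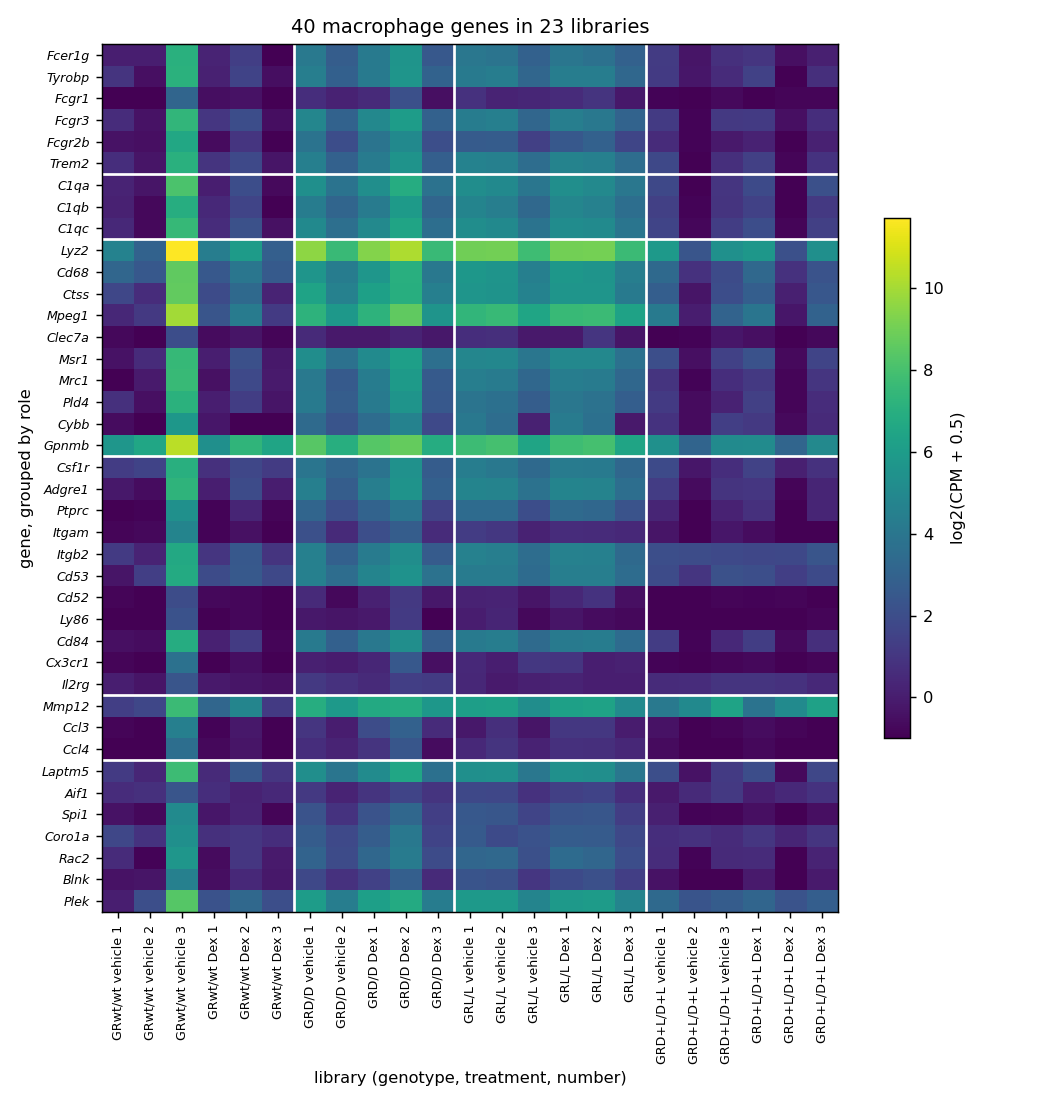
Level of each of the 40 genes, as log2(CPM + 0.5), in each of the 23 libraries; white lines separate roles (rows, from Fc receptors and ITAM adaptors at the top, then complement, uptake and lysosome, receptors and surface, secreted, and transcription and signalling) and genotypes (columns). The column of GRwt/wt vehicle replicate 3 is the brightest for every gene. Gpnmb stays at 8.05 CPM or more where most other genes are dark. Mmp12 stays bright in GRD+L/D+L but falls to 1.75 CPM in GRwt/wt Dex replicate 3.

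The genes did not all reach zero in the cultures lowest in the set. In both number 2 libraries of GRD+L/D+L, 22 of the 40 genes had at most 3 counts, whereas 10 kept 10 or more. Mmp12 had 706 and 587 counts there and Gpnmb, a lysosomal glycoprotein, 176 and 146, while none of the 3 C1q genes had more than 2. Across all libraries, the ratio of the highest to the lowest library was 2920 for the pore-forming Mpeg1 and, against the floor of 3 counts, at least 2047 for C1qa. It was 11.3 for Aif1, 18.3 for the cytokine receptor chain Il2rg and 117 for Mmp12. Gpnmb and Mmp12 together made up 15.2 to 27.9% of the counts of the set in the 12 libraries with a sum of at least 500 CPM, and 25.8 to 74.4% in the other 11. Without them, the sum was 20.1 CPM in the lowest library and 8440 CPM in the highest. Much of the sum in the lowest libraries thus came from this pair, but the gene differed. In GRwt/wt Dex replicate 3 the pair held 73.2% of the counts of the set, mostly Gpnmb. There the secreted genes Mmp12, Ccl3 and Ccl4 together held 1.47%. In GRD+L/D+L vehicle replicate 2 the pair held 65.1%, and the same secreted genes, mostly Mmp12, 52.1%. Il2rg shares 728 bases of exon with Gm20489 on its own strand and Itgam 3450 bases with Gm49368, and 9 of the 40 genes overlap another gene in all, so their counts are less certain.

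Among the 12 libraries with at least 500 CPM, the genes differed in how steady their level was relative to the set. The log2(CPM + 0.5) of each gene, less that of the median gene of its library, had an SD over the 12 libraries below 0.2 for 14 genes and above 0.5 for 10. The offset of 0.5 weighs most on genes near that level, and its part in their SD was not tested. On this scale Il2rg and Aif1 were lowest in GRwt/wt vehicle replicate 3, with the largest sum, and highest in GRD/D Dex replicate 3, with the smallest sum of the 12. Tyrobp (SD 0.111), Cd68 (0.115), Trem2 (0.124) and C1qc (0.131) varied least. Cybb (1.05), Il2rg (0.95), Clec7a (0.771), Aif1 (0.757) and Mmp12 (0.674) varied most. The lowest count in these libraries was 6 for Clec7a, 8 for Cybb, 8 for Il2rg and 14 for Aif1, but 621 for Mmp12 and 125 to 309 for the 4 steadiest genes. These libraries may come from cultures that partly recur in both treatments, which the labels do not state, so the SD is a description.

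Cybb, the X-linked gene of the catalytic subunit of the phagocyte NADPH oxidase, was low beside Tyrobp in the number 3 libraries of GRL/L and in GRwt/wt Dex replicate 2. The number 3 libraries of GRL/L had 12 Cybb counts beside 171 of Tyrobp in vehicle and 8 beside 171 with Dex. Cybb was thus 6.56% (exact 95% interval 3.43 to 11.2%) and 4.47% (1.95 to 8.62%) of the counts of both genes. In the other GRL/L libraries it was 35.5 to 48.2%, in GRD/D 28.8 to 38.9% and in GRwt/wt vehicle replicate 3 27.4%. GRwt/wt Dex replicate 2 had no Cybb count beside 52 of Tyrobp, for which the exact 95% interval reached 6.85%. The intervals of both number 3 libraries lay below those of the other 4 GRL/L libraries and the 5 GRD/D libraries. This gene pair, like those that follow, was chosen after its values were seen, and no test was made.

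Itgam, which encodes the CD11b chain of complement receptor 3, was 4.59 to 9.44% of the sum of Itgam and Tyrobp counts in the 6 GRL/L libraries, and 11.1 to 16.5% in the 5 GRD/D libraries. Fcgr2b, the inhibitory Fc receptor, was 19.7 to 30.6% of the counts of Fcgr2b and Fcgr3 in GRL/L and 32.1 to 33.3% in GRD/D. In GRwt/wt vehicle replicate 3 the shares were 15.7% for Itgam and 37.1% for Fcgr2b, and in GRwt/wt Dex replicate 2 the share of Fcgr2b was 29.5%, within the range of GRL/L. The values of the 2 genotypes did not overlap for either gene, although single intervals did. They did not overlap either, but with GRL/L the higher, for Mpeg1 beside Tyrobp (89.9 to 91.0% in GRL/L, 86.6 to 89.1% in GRD/D). The same held for Trem2 beside Tyrobp (52.3 to 57.2% and 47.9 to 50.9%). The other gene pairs looked at overlapped between these genotypes. Libraries of a genotype can come from the same culture in both treatments, so they are not independent.

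Ccl3 is given in the same way for vehicle and Dex. It made up 2.1, 5.25 and 3.39% of Ccl3 and Tyrobp counts in GRL/L vehicle and 7.17, 7.20 and 5.00% in GRL/L Dex. It made up 6.42 and 6.90% in vehicle and 15.6, 12.9 and 11.7% with Dex in GRD/D. Vehicle and Dex did not overlap in GRD/D. They overlapped in GRL/L, although the share was higher with Dex within each of its 3 numbers. GRwt/wt vehicle replicate 3 held 13.6%, above 2 of the 3 GRD/D Dex libraries. The vehicle counts of Ccl3 in GRL/L were 7, 21 and 6, and the intervals of both treatments overlapped in replicates 2 and 3.

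**Figure D3:**
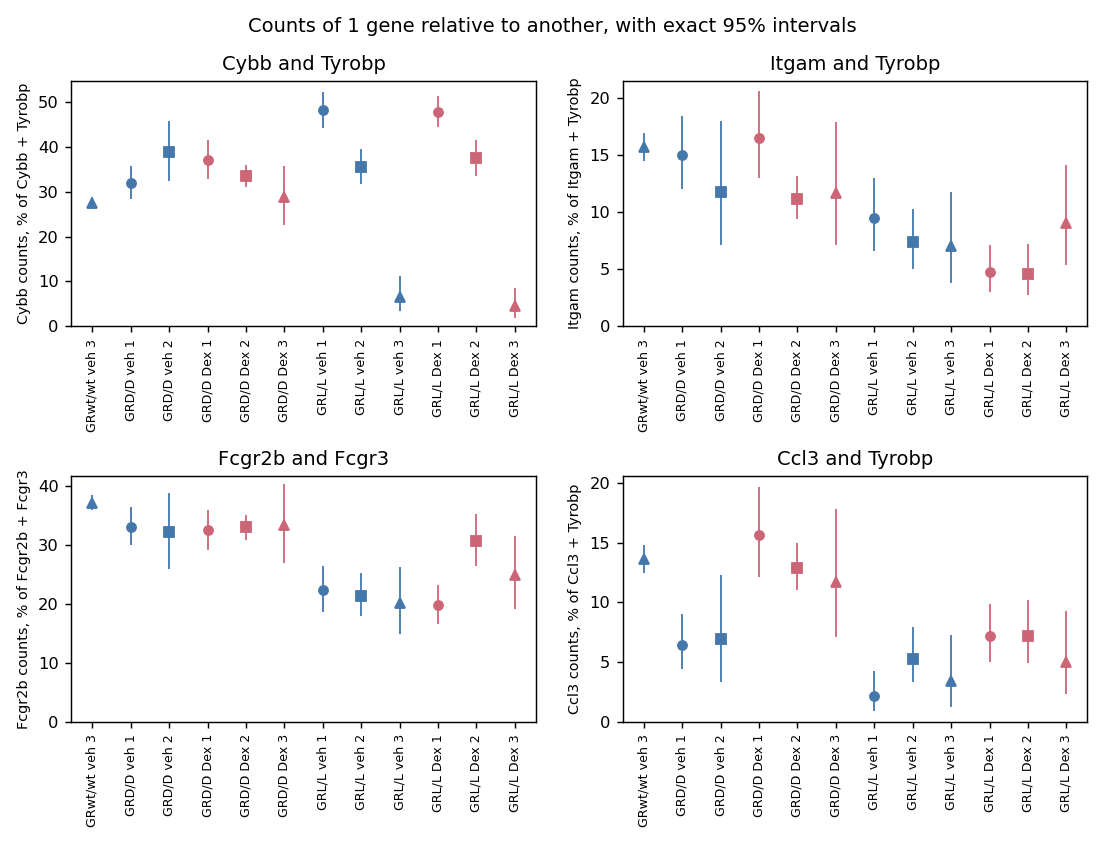
Counts of Cybb, Itgam, Fcgr2b and Ccl3 as a percentage of the counts of the gene and a partner gene, with exact 95% intervals for counting error, in the 12 libraries with at least 500 CPM of the set (blue vehicle, red Dex; marker shape is the library number). Cybb lies at 6.56 and 4.47% in the number 3 libraries of GRL/L, against at least 27.4% in the other 10.

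Whether Dex changed the set was asked within each genotype. In edgeR's quasi-likelihood test over all 23 libraries, a gene was called if its absolute LFC reached 1 and its p, adjusted after Benjamini and Hochberg over all 15748 genes tested, did not exceed 0.05. In GRL/L, 0 of 40 members were called, against 0.0% of all genes tested, and 0 had an unadjusted p under 0.05, against 0.273% of all genes. The median LFC of the members was 0.013, with 22 members above 0 and 18 below, beside a median of -0.0033 over all genes. For GRD+L/D+L the test called 0 of 40 members, against 0.0% of all genes. None (0) had an unadjusted p below 0.05, and the median LFC was -0.023, with 20 members on either side of 0. DESeq2 called 0 members in both as well. The LFC of Lyz2 in GRL/L was 0.06 with an SE of 1.43, that of Csf1r -0.03 with an SE of 1.09 and that of C1qb 0.17 with an SE of 1.46.

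In these 2 genotypes, the equally numbered libraries deviated from their group means together, and a number was taken to mark a culture, so that the ratio within a number could be read. The median over members of log2(CPM + 0.5), Dex minus vehicle, was 0.05, 0.04 and -0.04 in GRL/L numbers 1, 2 and 3, with 25, 26 and 17 of 40 members higher with Dex. The summed CPM with Dex was 1.05, 1.04 and 0.946 times that in vehicle. The medians were -0.01, -0.01 and 0.08 in GRD+L/D+L, and the sums 0.925, 1.00 and 0.980 times those in vehicle. The lower and upper quartiles over members were -0.06 and 0.13 in GRL/L number 1 and -0.22 and 0.19 in GRD+L/D+L number 1. In GRL/L, 6 members were higher with Dex in all 3 numbers (Tyrobp, C1qb, Cd53, Trem2, Pld4 and Ccl3) and 2 were lower in all 3 (Aif1 and Spi1). Likewise in GRD+L/D+L, 3 were higher in all (Ctss, Mrc1 and Cd84) and 5 lower in all (Lyz2, Adgre1, Fcer1g, Mpeg1 and Rac2). Among all 15748 genes tested, 12.0% were higher and 13.1% lower in all 3 numbers of GRL/L, and 14.1 and 12.7% in GRD+L/D+L. Several of the named members rest on few counts in GRD+L/D+L number 2, where vehicle and Dex held 1 and 1 for Mrc1, 1 and 2 for Cd84, 3 and 1 for Adgre1, 1 and 0 for Rac2 and 7 and 4 for Fcer1g. Among the members with 10 or more counts in every library of the genotype, 5 were higher and 2 lower of 33 in GRL/L, and 0 higher and 1 lower of 9 in GRD+L/D+L. With the replicate number as a block within genotype, 0 members were called in either genotype, and the medians were 0.0037 and -0.018.

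In GRwt/wt and GRD/D, equally numbered libraries did not all deviate together. Those numbered 1 did (0.572 and 0.339), whereas vehicle replicate 2 correlated most with Dex replicate 3 in GRwt/wt (0.589) and in GRD/D (0.535), with sums of 127 and 119 CPM and of 668 and 630 CPM. The labels do not say whether a number marks a culture, so a ratio within a number may set different cultures side by side. In GRwt/wt the median of the pairwise log2 ratio was 0.10 for number 1, 1.38 for number 2 and -6.26 for number 3, where all 40 members were lower with Dex. Of the 40 members, 0 were called with Dex in GRwt/wt, against 0.159% of all genes, although 38 had an unadjusted p under 0.05, compared with 15.6% of all genes. Their median LFC was -4.93, and the lowest adjusted p was 0.140 (Coro1a). DESeq2 called 29 members lower, against 0.949% of the genes it tested. Without GRwt/wt vehicle replicate 3, the direction turned, since the median LFC became 1.22 with 36 of 40 members above 0 and 0 called, against 0.606% of all genes. Without vehicle replicate 2, on the other hand, 26 members were called lower, against 2.39% of all genes, and without vehicle replicate 1, 4 were (Plek, Csf1r, Coro1a and Itgam), against 0.478%. In GRD/D, 0 members were called, against 0.0% of all genes, and 39 of 40 had an LFC above 0, with a median of 0.82 that became -0.06 without Dex replicate 2. In number 1 of GRD/D the median ratio was -0.06, and in number 2 it was 2.40, with all 40 members higher. DESeq2 called 0 members in GRD/D, against 0.0068% of the genes it tested. With edgeR 0 had an unadjusted p under 0.05, against 0.978% of all genes.

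**Figure D4:**
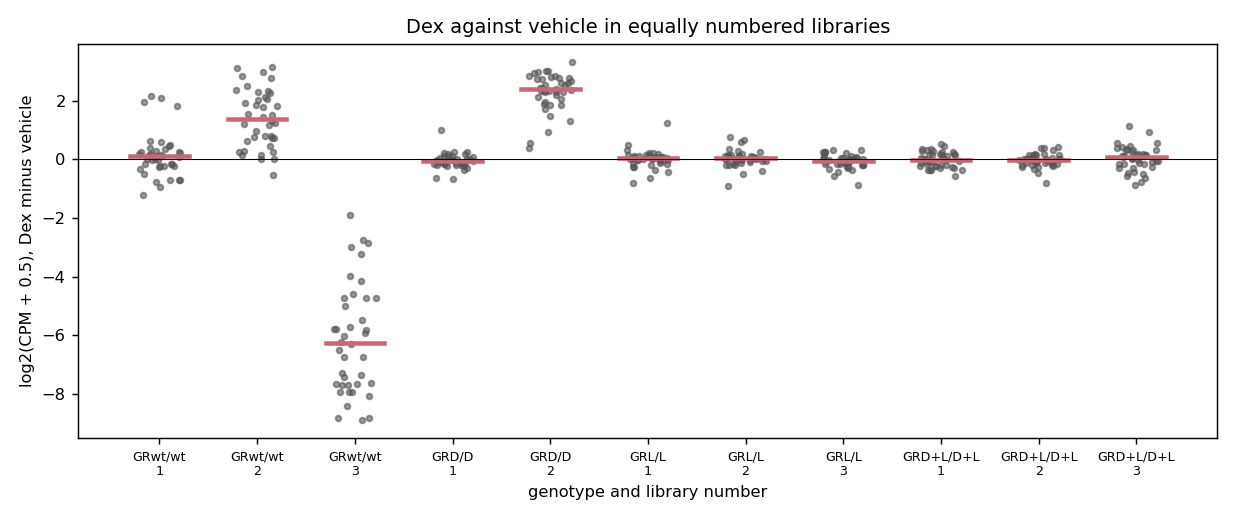
Dex minus vehicle, as the difference of log2(CPM + 0.5), for each of the 40 genes (points) in each pair of libraries with the same number, with the median as a red line. The medians lie between -0.04 and 0.08 in the 6 pairs of GRD+L/D+L and GRL/L, and at -6.26 and 2.40 in number 3 of GRwt/wt and number 2 of GRD/D.

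Each mutant was compared with GRwt/wt in vehicle to ask whether the basal level of the set depended on the genotype. For GRD+L/D+L, 31 of 40 members were called, all lower, against 8.32% of all genes called in either direction. They comprised 6 of 6 Fc receptor and ITAM adaptor genes, 8 of 11 receptors and surface genes, 6 of 7 transcription and signalling genes, 7 of 10 uptake and lysosome genes, 2 of 3 complement genes and 2 of 3 secreted genes. The median LFC of the 40 was -5.29. The called members with the lowest fitted LFC were Ly86 (-7.73 with an SE of 2.49), the fractalkine receptor Cx3cr1 (-6.71 with an SE of 1.97), Blnk (-6.39), Mrc1 (-6.26), Fcgr2b (-6.09), the chemokine Ccl4 (-6.06), Ccl3 (-6.05) and C1qa (-6.04). Their edgeR adjusted p ranged from 0.0139 for Blnk to 0.0394 for Ly86. Ly86 had no count in any GRD+L/D+L vehicle library nor in GRwt/wt vehicle replicates 1 and 2, and 91 counts in replicate 3, so its fitted LFC and its place among these genes depend on the prior count. Over the 3 GRD+L/D+L vehicle libraries, Cx3cr1 had 1, 0 and 1 counts, Blnk 5, 0 and 0 and Ccl4 3, 0 and 0. Of the markers of other cell types tested there, Tubb3 of the neural list was called lower, and the fitted LFC of the 2 skeletal muscle genes tested had a median of -2.34, neither gene being called. Their part in the result was not tested. The 9 members not called were Aif1, C1qb, Clec7a, Cybb, Il2rg, Itgb2, Mmp12, Mpeg1 and Ptprc.

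These calls changed with some single libraries and fits. DESeq2 called 35 of 40 members lower, against 5.83% of the genes it tested, and leaving out GRwt/wt vehicle replicate 1 or 2 left 36 called lower in each case, against 8.5 and 10.1% of all genes. With only the libraries of both genotypes, 0 of the 31 members tested were called, against 0.754% of all genes, and with the replicate number as a block shared by all genotypes 8, against 7.47%. The mean of the summed CPM in GRwt/wt vehicle was 3412 ± 5705 (SD, n = 3), and 119 without replicate 3. All 40 members were highest in that library, so leaving it out lowers the GRwt/wt level of the set by construction. Calls made without it describe that choice and are not a test of genotype. Without replicate 3, 2 members were called in GRD+L/D+L against GRwt/wt, both higher (Il2rg and Mmp12), against 12.8% of all genes. The median LFC turned from -5.29 to 1.16. Col3a1 of the fibroblast list and Atp6v0d2 of the osteoclast list were then called higher, and Des of the skeletal muscle list and Tubb3 lower. Leaving out GRD+L/D+L vehicle replicate 1 left 8 called, replicate 2 left 1 (Coro1a) and replicate 3 left 1 (Gpnmb), all lower, against 8.22, 3.73 and 4.56% of all genes. The comparisons of GRL/L and GRD/D with GRwt/wt turned as well. In GRL/L, 0 of 40 members were called, against 7.78% of all genes, with a median LFC of -1.44. An unadjusted p under 0.05 was held by 2 members, against 37.1% of all genes, and DESeq2 called 0, against 5.38% of the genes it tested. The test called 2 members lower without GRwt/wt vehicle replicate 1 (Ccl3 and Il2rg) and 3 without replicate 2 (the same 2 and Coro1a), against 5.93 and 9.19% of all genes. Without GRwt/wt vehicle replicate 3, 34 members were called higher, against 17.1% of all genes, with a median of 4.53. That comparison also called 3 of 10 fibroblast genes (Col3a1, Dcn and Vim, 2 higher and 1 lower), Kit, Acta1 and Tubb3 of the mast cell, skeletal muscle and neural lists lower and Atp6v0d2 of the osteoclast list higher, and their part in the result was not tested. In GRD/D, 0 of 40 were called, against 0.00635% of all genes, with a median LFC of -1.66. An unadjusted p under 0.05 was held by 0 members, against 12.4% of all genes, and DESeq2 called 0, against 0.0952% of the genes it tested. Without GRwt/wt vehicle replicate 3, 20 were called higher, against 2.4% of all genes, with a median of 4.62. Atp6v0d2 of the osteoclast list was then called higher too, and its part was not tested. Since GRwt/wt vehicle replicate 1 also stood apart over all genes, both were left out together. Only replicate 2, with a summed CPM of 127, then remained in the GRwt/wt vehicle group, whose spread could not be measured. The calls that follow rest on that 1 library and are not a test of genotype. GRL/L then had 19 members called, against 8.11% of all genes, and GRD+L/D+L 1 (Il2rg), against 6.79%, all higher.

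**Figure D5:**
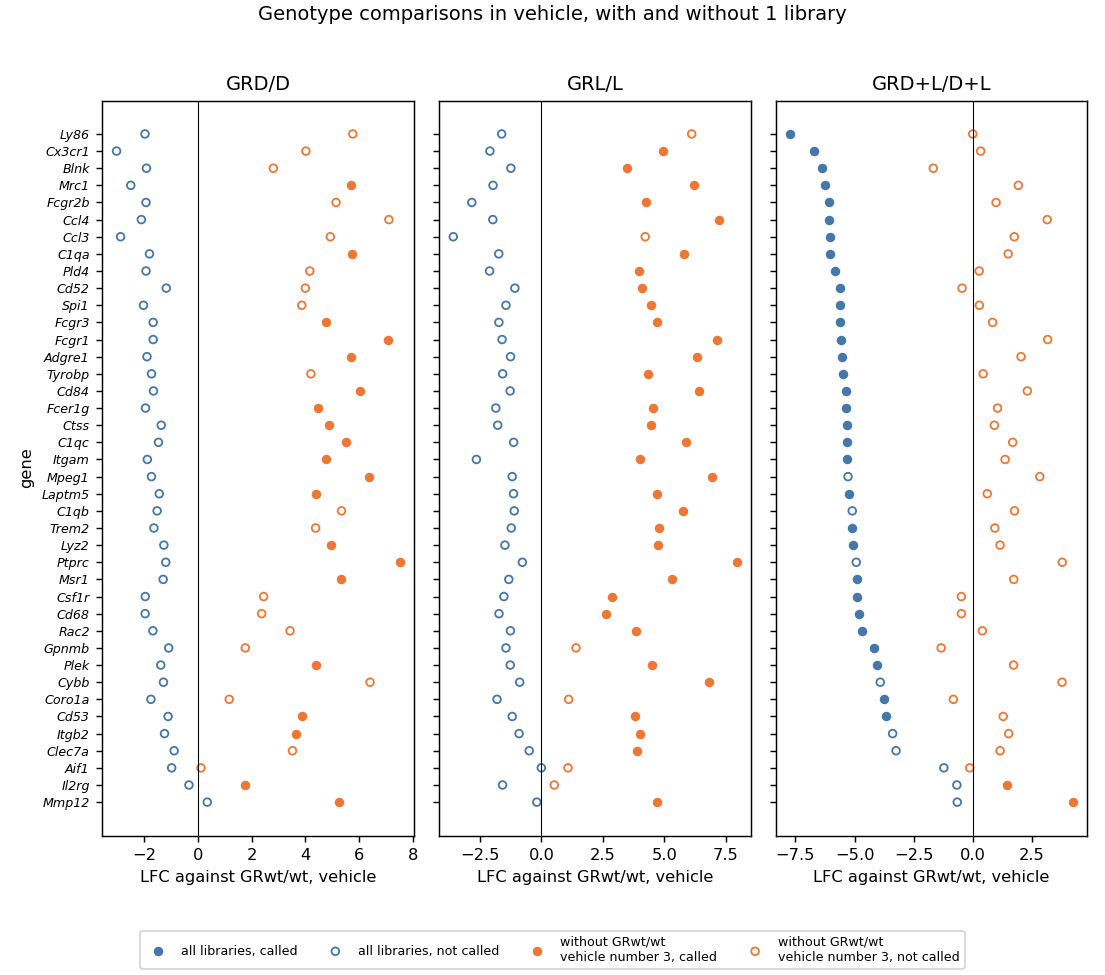
LFC of each of the 40 genes for each mutant against GRwt/wt in vehicle, from the fit with all libraries (blue) and from the fit without GRwt/wt vehicle replicate 3 (orange); filled points are called. For GRD+L/D+L, 31 genes are called lower in the first fit and 2 higher in the second, and for GRL/L 0 and 34. All 40 genes are highest in the library left out.

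Under Dex, where no GRwt/wt library was as rich in these genes, all 40 members had a higher fitted level in GRD/D than in GRwt/wt (median LFC 4.12) and all 40 in GRL/L (median LFC 3.22). None passed the threshold. The counts were 0 of 40 in GRD/D, against 0.254% of all genes, and 0 of 40 in GRL/L, against 2.59% of all genes, while 36 and 23 members had an unadjusted p under 0.05, as had 11.1 and 22.7% of all genes. DESeq2 called 7 and 5 members higher, against 0.939 and 2.63% of the genes it tested. For GRD+L/D+L, 0 of 40 were called, against 2.75% of all genes, with a median LFC of -0.25. An unadjusted p under 0.05 was held by 1 member, against 20.9% of all genes, and DESeq2 called 0, against 2.75% of the genes it tested. These comparisons share the GRwt/wt Dex libraries, in which the sum ran from 107 to 366 CPM. The sums of the GRD/D and GRL/L Dex libraries, from 630 to 3551 CPM, did not overlap with that range.

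Other myeloid genes were read in the same tests. Of a further list of 32 genes, 29 passed the expression filter, and in GRD+L/D+L against GRwt/wt in vehicle 19 of them were called lower, against 8.32% of all genes in either direction. Without GRwt/wt vehicle replicate 3, 28 of the list passed the filter. The same comparison then called 1 higher (Mertk, a receptor for dying cells), against 12.8% of all genes. GRL/L against GRwt/wt called 20 higher, against 17.1%, and GRD/D 10 higher, against 2.4%. The library left out held the highest sum of this list, so these calls carry the same limit as those of the members. Mertk was also called higher with Dex in GRwt/wt without that library, against 0.606% of all genes. Dock2, which drives migration of white blood cells, reached 49.9 CPM in GRwt/wt vehicle replicate 3 and had 0 counts in another library of that group. Pf4 reached 20.1 CPM there, and Tnf 3.22 CPM. Genes carried by resident macrophages of many tissues were not all high there. Folr2 and Stab1 reached 63.8 and 188 CPM in GRwt/wt vehicle, whereas Lyve1 had 1 count in replicate 3 and at most 16 in any library. The resident macrophage genes Cd163 and Timd4 stayed low, with at most 2 and 9 counts in any library, as did the inflammatory cytokine gene Il1b with at most 1. The 6 osteoclast genes summed to at most 326 CPM, and their member Atp6v0d2, a proton pump subunit of macrophages and osteoclasts, reached 56.8 CPM in GRwt/wt vehicle replicate 3 and 0.276 CPM in the lowest library of the same group.

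Genes of the CSF1 axis were followed as the signals on which macrophages live. Csf1 was at 209 ± 8.97 CPM in vehicle and 148 ± 28.9 CPM with Dex in GRwt/wt (SD, n = 3 each). It reached 276 and 241 CPM in GRD/D vehicle and 203, 125 and 172 CPM with Dex, where the sums of macrophage genes were 1347 ± 960 (SD, n = 2) and 2024 ± 1465 CPM (SD, n = 3). It was at 154 ± 11.9 CPM in GRL/L vehicle and 172 ± 23.01 CPM in GRD+L/D+L vehicle, whose sums of macrophage genes were 1292 ± 508 and 160 ± 85.2 CPM. With Dex, Csf1 reached 147, 143 and 158 CPM in GRL/L and 161, 156 and 184 CPM in GRD+L/D+L. Il34, the other ligand of CSF1R, stayed between 0.443 and 3.09 CPM, and Csf2 had 0 counts in every library. Of the 5 genes of this axis that were tested, 0 were called with Dex in any genotype, and 1 (Csf2ra, a chain of the receptor for CSF2) was called lower in GRD+L/D+L against GRwt/wt in vehicle, against 8.32% of all genes. Without GRwt/wt vehicle replicate 3 that comparison called 0, against 12.8%, and GRL/L against GRwt/wt called 1 higher (Csf2rb, the shared chain of that receptor), against 17.1%.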

How the data were processed

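The authors deposited unnormalized counts of reads for each Ensembl gene. TruSeq libraries were sequenced on an Illumina instrument, mapped to mm10 (GRCm38) with HISAT2 2.1.0 and counted from unique reads with featureCounts 2.0.0. The annotation release and strandedness were not given in the sources used here. All 23 columns were mapped to libraries by name. Symbols and coordinates came from GENCODE M21. The members, lists and tests were chosen with earlier results of these data known. The members are 40 genes in 6 role groups. Values of every library were given for 10 genes fixed as a panel (Lyz2, Cd68, Csf1r, Adgre1, Spi1, Ptprc, Tyrobp, C1qb, Mrc1 and Ccl3), and called members were named in full up to 8 per comparison by absolute LFC.

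Counts were fitted in R 4.3.3 with edgeR 4.0.16 (quasi-likelihood test, 1 mean per group, TMM scaling, filterByExpr, which left 15748 genes, prior count 0.125) and Benjamini-Hochberg adjustment. SE were derived from the LFC and the F statistic. Adjusted p-values are from edgeR unless DESeq2 1.42.0 is named. The fit was tested on simulated data. Since strandedness is unknown, overlapping genes are uncertain. Libraries of a group differed by a mean chi-square per gene of at least 8.97, so no pair matched within counting noise. The study describes cultures from separate mice for another Dex dose and an equal setup for these libraries. The labels say neither this nor whether a number marks one culture, so p-values measure the spread between libraries. Correlations of deviations between equally numbered vehicle and Dex libraries were 0.431, 0.741 and 0.734 in GRL/L and 0.928, 0.847 and 0.773 in GRD+L/D+L, so these were treated as paired, 0.572, 0.065 and 0.032 in GRwt/wt, and 0.339 and -0.233 in GRD/D, where not every number was over 0.1, and which were not treated as paired. Exact intervals are Clopper-Pearson, at 95%, and cover counting error only. Alternatives were RLE and upper-quartile scaling, no filter or at least 10 counts in every library, prior count 2, adjusted p alone, DESeq2, fits of the compared genotypes only, both replicate blocks, leaving out libraries and, chosen after seeing the data, an offset of 2 on the CPM.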

Additional observations from a re-analysis of the deposited data

How the results depend on the processing

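RLE or upper-quartile scaling, no filter, a prior count of 2 and adjusted p alone moved no count of called members by over 1.5 times and no member median beyond its spread. The replicate block within genotype moved no count of called members in the Dex comparisons. It moved the GRD/D median from 0.82 to 1.27 and the GRwt/wt median to -1.73, and a minimum of 10 counts in every library, which left 7 members, moved it to -3.67. For GRD+L/D+L against GRwt/wt in vehicle, that minimum left 5 called, the fit with only those genotypes 0, the replicate block shared by all genotypes 8 and the fit without GRwt/wt vehicle replicates 1 and 3 only 1. Without these 2 libraries GRL/L had 19 called and the GRwt/wt Dex median was 2.16. DESeq2 called 29 members for Dex in GRwt/wt, 7 in GRD/D and 5 in GRL/L against GRwt/wt under Dex. The cause was not tested.

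Leaving out single libraries gave 0 to 26 called for Dex in GRwt/wt, 0 to 20 for GRD/D, 0 to 34 for GRL/L and 1 to 36 for GRD+L/D+L against GRwt/wt in vehicle. For the last, the count fell from 31 to 8, 1 and 1 when GRD+L/D+L vehicle libraries 1, 2 and 3 were left out. Member medians with Dex ranged from -6.04 to 1.22 in GRwt/wt, -0.06 to 1.67 in GRD/D, -0.26 to 0.31 in GRL/L and -0.53 to 0.90 in GRD+L/D+L. Panel LFC with Dex in GRL/L ranged over Lyz2 -0.25 to 0.39, Cd68 -0.30 to 0.31, Csf1r -0.28 to 0.23, Adgre1 -0.30 to 0.25, Spi1 -0.41 to 0.15, Ptprc -0.41 to 0.25, Tyrobp -0.20 to 0.39, C1qb -0.16 to 0.48, Mrc1 -0.28 to 0.30, Ccl3 0.68 to 1.79. In GRD+L/D+L they ranged over Lyz2 -0.65 to 0.49, Cd68 -0.79 to 1.13, Csf1r -0.71 to 1.00, Adgre1 -1.44 to 0.13, Spi1 -1.07 to 1.42, Ptprc -0.26 to 1.11, Tyrobp -0.84 to 0.78, C1qb -0.50 to 0.90, Mrc1 -0.21 to 1.02, Ccl3 -1.65 to 1.31. The lowest called LFC of GRD+L/D+L against GRwt/wt in vehicle ranged over Ly86 -8.32 to 0, Cx3cr1 -7.29 to 0.34, Blnk -10.22 to -1.67, Mrc1 -6.90 to 1.93, Fcgr2b -7.21 to 0.99, Ccl4 -9.22 to 3.15, Ccl3 -7.81 to 1.76, C1qa -7.08 to 1.5. Without GRwt/wt vehicle replicates 1 and 3 together they were 0 for Ly86, 2.65 for Cx3cr1, -1.84 for Blnk, 0.90 for Mrc1, 1.10 for Fcgr2b, 3.14 for Ccl4, 4.07 for Ccl3 and 2.1 for C1qa. LFC near 0 changed sign for Cd68 in GRL/L (0.0024 with the minimum of 10 counts, 0.0047 without a filter, 0.00096 with the GRL/L libraries only). With the replicate block within genotype they changed sign for Ptprc in GRL/L (0.0086) and for Csf1r (0.033) and Tyrobp (-0.089) in GRD+L/D+L. Without Lyz2, the highest, median and lowest sums were 6620, 435 and 57.4 CPM.

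In the GRD+L/D+L number 2 libraries 22 members had at most 3 counts, which limits what can be read of them there, although the vehicle library had the highest total of all 23. With 2 or 3 libraries a group, 1 culture high in the set can decide both the mean and the spread.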
